A study of Mus musculus with 6 samples.

Results

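The Ms4a genes encode small proteins that cross the membrane 4 times, and most of them are expressed in blood cells. The 9 genes described here, Ms4a1, Ms4a2, Ms4a3, Ms4a4b, Ms4a4c, Ms4a6b, Ms4a6c, Ms4a6d and Ms4a7, were taken by symbol from a table of 55487 genes, which holds 21 rows with an Ms4a name. They were chosen with their difference between the genotypes in view, so their values in that comparison are a description and support nothing beyond themselves. RNA came from bone-marrow LSK cells, the haematopoietic stem and progenitor fraction that is sorted as negative for lineage markers and positive for Sca-1 and Kit. There were 3 libraries from Mc5r-/- mice (Mc5r-null), which lack the melanocortin 5 receptor, and 3 from wild-type littermates. According to the series' design text all mice had been irradiated. The dose, the time after it, the ages, the strain and which part of Mc5r is deleted are not stated in the labels. No library from unirradiated mice was analysed. The labels do not say how many mice stand behind a library, so the SDs and p-values cover only library-to-library spread, possibly technical.

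As background, the family members mark different blood lineages. Ms4a1 encodes CD20, the B cell surface protein. Ms4a2 encodes the beta chain of the high-affinity IgE receptor of mast cells and basophils, which strengthens the signal that the alpha chain (Fcer1a) and the gamma chain (Fcer1g) start when IgE is bridged. Ms4a3 is a gene of granulocyte-macrophage progenitors. The Ms4a4 and Ms4a6 genes of the mouse are duplicated copies with members expressed in monocytes, macrophages and lymphocytes, Ms4a4b being best known from T cells, and Ms4a7 is expressed in macrophages.

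Gene counts summed to between 13983016 and 14076870 in the Mc5r-null libraries and to between 14903723 and 14953169 in the wild-type libraries. The targeted gene Mc5r had 0, 0 and 1 counts in Mc5r-null libraries, against 181, 157 and 198 in wild-type libraries. Kit, which defines the sort, had 256 ± 5.21 CPM in Mc5r-null and 241 ± 2.95 CPM in wild-type libraries (SD, n = 3 each). CPM are gene counts scaled to a common library total. Ly6a, the Sca-1 gene, had 66.6 ± 9.54 CPM in Mc5r-null and 59.3 ± 10.6 CPM in wild-type libraries. Of 6 genes listed for LSK cells, Kit and Ly6a among them, 4 were called higher and 1 lower, while Ly6a was not called. Higher were Kit, at 0.12 on the log2 scale (edgeR adjusted p = 0.00403), and Cd34, at 0.28 (edgeR adjusted p = 0.000112). Flt3 was at 0.47 (edgeR adjusted p = 2.53e-07) and Slamf1 at 1.42 (edgeR adjusted p = 0.00139). Cd48 was at -0.19 (edgeR adjusted p = 0.0209). With DESeq2, 3 were higher and 0 lower. RNA of several of these genes thus differed by genotype. Of Kit and Ly6a, on which the sort rests, only Kit was called. Xist, expressed from the inactive X chromosome of females, had 0 to 2 counts in Mc5r-null libraries and 1167 to 1281 in wild-type libraries. The Y-linked Kdm5d had 309 to 343 counts in Mc5r-null and 288 to 315 in wild-type libraries. It was called higher, with 23.3 ± 1.24 CPM in Mc5r-null and 20.3 ± 0.942 CPM in wild-type libraries (edgeR adjusted p = 0.0374). The Y-linked Ddx3y, Eif2s3y and Uty were not called. Ddx3y had 83.6 ± 2.70 CPM in Mc5r-null and 59.7 ± 13.9 CPM in wild-type libraries, without overlap, while the groups of Eif2s3y and Uty overlapped. Xist thus moved with genotype, and the part of a difference in sex in the results below was not tested.

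All 9 genes lie in 1 cluster on mouse chromosome 19 (GRCm38), between positions 10962293 and 11640851, a span of 678.6 kilobases. The cluster holds 19 genes with an Ms4a name in the GENCODE annotation. All 21 rows with an Ms4a name lie in it, since some have another name in that annotation. Ms4a1 (11249675 to 11266241, minus strand) and Ms4a7 (11321039 to 11336146, minus) come first along the chromosome. They are followed by Ms4a4c (11404770 to 11427246), Ms4a4b (11443553 to 11467055), Ms4a6c (11469366 to 11482192) and Ms4a6b (11516512 to 11531256), all on the plus strand. Ms4a6d (11586604 to 11604849), Ms4a2 (11615523 to 11623719) and Ms4a3 (11629496 to 11640851) close the cluster on the minus strand. The table's coordinates of the 9 genes are those of GENCODE mouse release 21.

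The Ms4a4 and Ms4a6 genes are close copies, which bears on how reads could be assigned. The coding sequences of Ms4a4b and Ms4a4c, both of 678 bases, were identical at 91.7% of positions, those of Ms4a6b and Ms4a6c at 85.4% of aligned positions and those of Ms4a6b and Ms4a6d at 81.2%. The first 90 coding bases of the Ms4a4 pair, from the GENCODE transcripts of GRCm38, are shown because they let a reader see how few bases tell the copies apart. Capitals mark the 7 positions at which they differ.
Ms4a4c: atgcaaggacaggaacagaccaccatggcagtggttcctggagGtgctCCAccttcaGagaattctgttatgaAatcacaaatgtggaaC
Ms4a4b: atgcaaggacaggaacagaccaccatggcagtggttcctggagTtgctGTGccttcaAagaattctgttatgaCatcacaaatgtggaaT

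The same stretch of the 3 Ms4a6 genes differed at 19 of 90 positions, in capitals, and is given for the same reason.
Ms4a6b: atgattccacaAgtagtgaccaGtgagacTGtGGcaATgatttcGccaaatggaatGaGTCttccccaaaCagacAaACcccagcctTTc
Ms4a6c: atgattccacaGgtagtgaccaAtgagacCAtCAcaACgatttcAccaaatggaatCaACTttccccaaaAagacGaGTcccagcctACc
Ms4a6d: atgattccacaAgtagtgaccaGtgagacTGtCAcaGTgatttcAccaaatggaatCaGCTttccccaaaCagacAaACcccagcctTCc

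Of all distinct runs of 50 bases in the annotated transcripts of a gene, 8.19% of those of Ms4a4c, 5.85% of those of Ms4a6c, 3.44% of those of Ms4a6b, 2.31% of those of Ms4a6d, 2.24% of those of Ms4a4b and 2.1% of those of Ms4a2 also occurred in another Ms4a gene. For Ms4a1, Ms4a3 and Ms4a7 none did. Genes with other names, among them pseudogenes inside the cluster, were not searched. The labels do not say how the authors' counting treated shared reads, so the split between copies is uncertain, and these shares do not bound it. On the opposite strand, the noncoding gene BE692007 shares 1088 exon bases with Ms4a6c and had 40 counts over all 6 libraries, and the use of strand in counting is not known.

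RefSeq promoter windows of GRCm38.p6, from 250 bases before to 50 bases after the start site, were found for 7 of the 9 genes and not for Ms4a1 or Ms4a6d. 6 of them are printed 5′ to 3′, for the genes on which the results turn. The Ms4a2 window (chr19:11623670-11623969, minus strand) is shown for its 3 copies of GATAA, the core letters read by GATA factors, in capitals on either strand. They begin 224, 37 and 10 bases before the start site.
Ms4a2: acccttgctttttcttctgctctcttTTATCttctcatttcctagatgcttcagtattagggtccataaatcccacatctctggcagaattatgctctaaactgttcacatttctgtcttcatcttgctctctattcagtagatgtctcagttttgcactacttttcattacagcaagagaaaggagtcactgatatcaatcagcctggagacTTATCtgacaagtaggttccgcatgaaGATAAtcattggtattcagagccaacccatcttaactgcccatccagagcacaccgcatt

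GATAA occurred at least once in 25.3% of 32544 promoter windows of that length, and at least 3 times in 0.903%. The Ms4a3 window (chr19:11640802-11641101, minus strand) is shown for GAGGAA, core letters of PU.1 sites, which is followed without a gap by TTGCNNAA, a spelling of C/EBP sites, in capitals and beginning 35 bases after the start site.
Ms4a3: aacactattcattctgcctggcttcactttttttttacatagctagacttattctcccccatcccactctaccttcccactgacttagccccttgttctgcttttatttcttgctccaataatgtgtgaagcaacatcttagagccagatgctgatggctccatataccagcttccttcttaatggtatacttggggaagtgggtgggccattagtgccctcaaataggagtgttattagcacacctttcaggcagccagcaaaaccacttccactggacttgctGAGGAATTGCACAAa

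GAGGAA stood in 28.1% of all windows, TTGCNNAA in 10.8% and both in 2.92%. The windows of Ms4a6c (chr19:11469118-11469417) and Ms4a6b (chr19:11518309-11518608), both on the plus strand, share an exact run of 48 bases, in capitals. They were identical at 64.0% of 300 positions in an alignment with gaps, and are shown because the genes are close copies.
Ms4a6c: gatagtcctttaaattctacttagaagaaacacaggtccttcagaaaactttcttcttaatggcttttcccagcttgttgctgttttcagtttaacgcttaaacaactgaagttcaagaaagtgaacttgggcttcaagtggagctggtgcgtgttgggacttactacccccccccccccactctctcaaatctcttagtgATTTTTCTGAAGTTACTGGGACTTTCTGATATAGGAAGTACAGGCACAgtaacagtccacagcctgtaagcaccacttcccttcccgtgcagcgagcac
Ms4a6b: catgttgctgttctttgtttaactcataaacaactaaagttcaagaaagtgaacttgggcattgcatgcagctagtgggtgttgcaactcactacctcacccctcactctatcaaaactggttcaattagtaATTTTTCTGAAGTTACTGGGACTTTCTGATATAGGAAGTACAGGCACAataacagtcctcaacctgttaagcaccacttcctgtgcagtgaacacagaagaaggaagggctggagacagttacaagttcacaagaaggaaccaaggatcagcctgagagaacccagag

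The windows of Ms4a4c (chr19:11407411-11407710) and Ms4a4b (chr19:11443308-11443607), also on the plus strand, were identical at 76.7% of 300 positions in an alignment with gaps. Their longest shared run was 20 bases, and they are shown for the same reason. The part of promoter likeness in the fold changes of either pair was not tested. In capitals, both hold GAGGAA, beginning 61 bases before the start site in Ms4a4c and 64 in Ms4a4b. Ms4a4c alone holds, read on the minus strand, the octamer ATGCAAAT, which occurred in 1.75% of all windows.
Ms4a4c: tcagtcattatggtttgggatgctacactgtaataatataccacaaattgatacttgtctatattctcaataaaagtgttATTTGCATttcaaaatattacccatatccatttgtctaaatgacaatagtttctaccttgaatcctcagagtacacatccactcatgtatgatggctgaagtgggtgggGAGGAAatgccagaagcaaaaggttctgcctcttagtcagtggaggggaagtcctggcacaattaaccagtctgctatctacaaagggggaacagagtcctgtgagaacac
Ms4a4b: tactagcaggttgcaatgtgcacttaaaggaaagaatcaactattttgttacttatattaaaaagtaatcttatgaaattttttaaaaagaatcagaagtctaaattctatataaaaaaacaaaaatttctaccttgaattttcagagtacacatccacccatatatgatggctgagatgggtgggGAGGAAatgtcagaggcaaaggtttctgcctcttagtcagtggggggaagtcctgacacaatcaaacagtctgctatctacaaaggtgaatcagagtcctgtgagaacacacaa

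All motifs were searched on both strands, as were the palindrome CAGCTG, an E-box read by bHLH factors, and the interferon-stimulated response element. These last motifs stood in 16.4% and 3.45% of all windows and in none of the 8 windows of these genes, Ms4a7 having 2 annotated start sites. The windows of Ms4a4c and Ms4a6b lie inside the annotated genes, which begin at positions 11404770 and 11516512. Which start sites were in use was not tested. These matches describe letters in the windows, and no binding was measured.

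Of the Ms4a genes, 6 were lower and 1 was higher in Mc5r-null LSK cells. Ms4a2 and Ms4a4c had the largest decreases. Ms4a6b, Ms4a6c and Ms4a6d were lower by factors that lie within 1 SE of Ms4a6d, the widest of the 3, of each other. Ms4a3 was lower by a smaller factor, Ms4a4b was not called, and Ms4a1 was higher. Of the 9 genes, 8 passed the filter on low counts and Ms4a7 did not. A gene was called at an adjusted p under 0.05 in an edgeR quasi-likelihood fit over all 15257 genes tested, with Benjamini-Hochberg adjustment. In that fit 16.1% of all genes were called lower and 16.8% higher. The CPM values of the genotypes did not overlap for 8 of the 9 genes (7 lower and 1 higher in Mc5r-null), while they did not overlap for 49.8% of all genes tested, with Mc5r-null lower for 28.7%. Over the 8 genes the log2 fold change had a median of -1.08, against 0.00 over all genes tested. Nothing is read from these counts, since the genes were chosen on them. In bulk RNA, fewer cells of a type and less RNA per cell cannot be told apart.

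**Figure D1:**
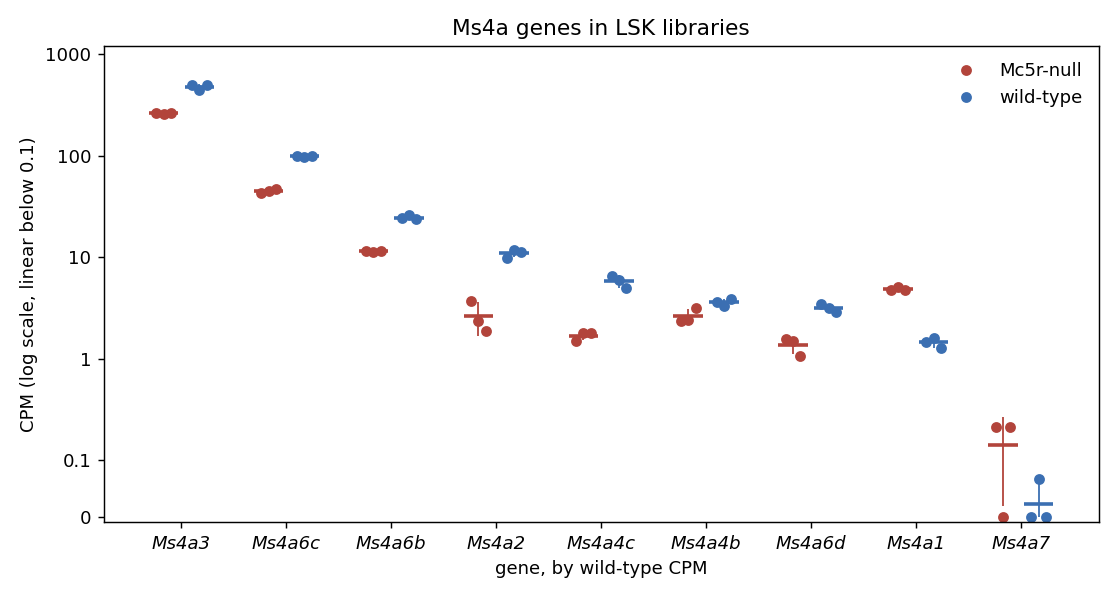
Levels (CPM) of the 9 Ms4a genes in each library (points), on a log axis that is linear below 0.1, with the mean (horizontal line) and SD (vertical line) of the 3 Mc5r-null and 3 wild-type libraries. The Mc5r-null points lie below the wild-type points for 7 genes and above them for Ms4a1, while those of Ms4a7 overlap.

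Ms4a3, the granulocyte-macrophage progenitor gene, was by far the most abundant member. Its counts were 3716, 3606 and 3631 in Mc5r-null libraries, against 7433, 6671 and 7308 in wild-type libraries. The groups did not overlap, and the lowest wild-type library was replicate 2. The level was 260.1 ± 4.13 CPM in Mc5r-null and 478 ± 27.3 CPM in wild-type libraries (SD, n = 3 each), a log2 fold change of -0.84 ± 0.04 (SE). Over all Ms4a genes together, the counts were 4691, 4595 and 4632 in Mc5r-null libraries and 9639, 8891 and 9523 in wild-type libraries. Ms4a3 supplied 78.4% to 79.2% of them in Mc5r-null and 75.0% to 77.1% in wild-type libraries, so the summed family level is largely that of 1 gene.

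Ms4a2, the IgE receptor beta chain gene, had 52, 33 and 26 counts in Mc5r-null libraries, against 148, 174 and 169 in wild-type libraries. The groups were far apart, and Mc5r-null replicate 1 was the highest of its group, at 2 times the count of replicate 3. Among the Ms4a genes in the fit no other spread that widely within a genotype. The log2 fold change was -2.02 ± 0.21 (SE), 4.05-fold lower, at 2.63 ± 0.954 CPM in Mc5r-null and 10.96 ± 0.937 CPM in wild-type libraries (SD, n = 3 each). Leaving out 1 library at a time moved the log2 fold change between -2.35 and -1.82.

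The Ms4a6 genes, whose copies are expressed in monocytes and macrophages, were lower by nearly equal factors at very unequal levels. Ms4a6c had 605, 634 and 655 counts in Mc5r-null libraries, against 1468, 1444 and 1491 in wild-type libraries. Ms4a6b had 163, 159 and 161 counts in Mc5r-null and 359, 385 and 353 in wild-type libraries, and Ms4a6d 22, 21 and 15 in Mc5r-null and 52, 47 and 43 in wild-type libraries. None of the 3 genes had overlapping groups. Their log2 fold changes were -1.09 ± 0.04 for Ms4a6c, -1.06 ± 0.07 for Ms4a6b and -1.16 ± 0.20 for Ms4a6d (SE), which lie within 1 SE of Ms4a6d of each other. The part of reads shared between these copies in the closeness of the values was not tested.

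The Ms4a4 pair differed, although its coding sequences are the most alike. Ms4a4c had 21, 25 and 25 counts in Mc5r-null libraries, against 98, 88 and 74 in wild-type libraries, a log2 fold change of -1.74 ± 0.17 (SE). Ms4a4b, best known from T cells, had 33, 34 and 44 counts in Mc5r-null libraries, against 54, 49 and 58 in wild-type libraries, which do not overlap but come close. Its log2 fold change was -0.41 ± 0.17 (SE) and it was not called, except without Mc5r-null replicate 3, where the value was -0.56. The difference between the 2 fold changes was not tested, since both genes were chosen on them.

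Ms4a1, the CD20 gene, moved the other way. It had 67, 72 and 66 counts in Mc5r-null libraries, against 22, 24 and 19 in wild-type libraries, with no overlap and little spread within either genotype. The level was 4.87 ± 0.216 CPM in Mc5r-null and 1.45 ± 0.167 CPM in wild-type libraries (SD, n = 3 each), a log2 fold change of 1.77 ± 0.15 (SE) or 3.42-fold. Ms4a7, the macrophage gene, had 3, 0 and 3 counts in Mc5r-null libraries and 0, 1 and 0 in wild-type libraries. At this depth the ratio of 6 to 1 counts is 6.38 per library total, with an exact 95% counting interval from 0.774 to 293, so no difference was detectable.

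**Figure D2:**
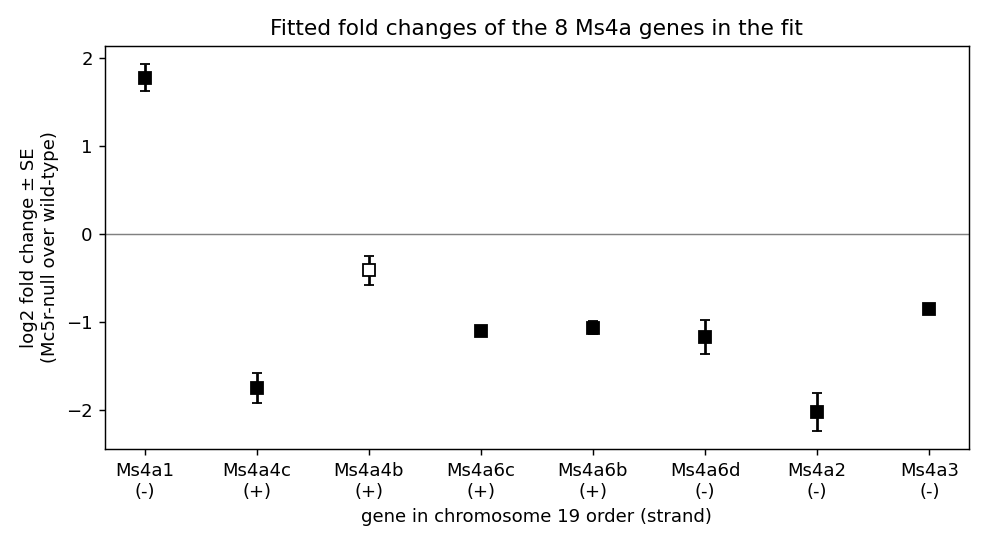
Fitted log2 fold changes (Mc5r-null over wild-type) of the 8 Ms4a genes in the fit, with SE bars, in their order along chromosome 19 with the strand in brackets. Filled squares were called and the open square, Ms4a4b, was not. Ms4a1 at 1.77 is the only positive value, and Ms4a2 at -2.02 the lowest.

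Of the other 12 rows with an Ms4a name, 10 had no count in any library (Ms4a4d, Ms4a5, Ms4a10, Ms4a12, Ms4a13, Ms4a14, Ms4a15, Ms4a18, Ms4a19 and Ms4a20). A count of 0 allows up to 3 counts, which is 0.213 to 0.215 CPM in a Mc5r-null library and 0.201 CPM in a wild-type library. Ms4a4a, a gene of macrophages, had 5, 8 and 5 counts in Mc5r-null libraries and 2, 3 and 8 in wild-type libraries, and Ms4a8a 4, 3 and 1 in Mc5r-null libraries and 3, 5 and 0 in wild-type libraries. The groups of both overlap, and neither gene entered the fit. The related 4-span genes Tmem176a and Tmem176b, which lie on chromosome 6, were both higher. Tmem176a had 134.6 ± 2.22 CPM in Mc5r-null and 95.2 ± 1.31 CPM in wild-type libraries (log2 fold change 0.53 with SE 0.03, edgeR adjusted p = 4.5e-06), and Tmem176b 190.1 ± 8.52 CPM in Mc5r-null and 138 ± 6.09 CPM in wild-type libraries (SD, n = 3 each; log2 fold change 0.50 with SE 0.04, edgeR adjusted p = 7.4e-05). Their annotated spans overlap on opposite strands, so some reads could belong to either.

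Neighbouring genes on chromosome 19 had smaller fold changes than the called Ms4a genes, in both directions. Ccdc86, the nearest gene before it, had a log2 fold change of -0.26 ± 0.04 (SE, edgeR adjusted p = 0.00196), and Prpf19, a splicing factor gene further out, -0.04 ± 0.02 (SE, edgeR adjusted p = 0.211). Beyond Ms4a3, the oocyte-secreted protein gene Oosp1 was higher, with 7.53 ± 0.56 CPM in Mc5r-null and 4.56 ± 0.414 CPM in wild-type libraries (SD, n = 3 each, log2 fold change 0.76 ± 0.12 SE, edgeR adjusted p = 0.00169). Mrpl16, a mitochondrial ribosomal protein gene, was lower (-0.33 ± 0.07 SE, edgeR adjusted p = 0.008). Inside the cluster, the long noncoding RNA AW112010 had a log2 fold change of 0.26 ± 0.08 (SE, edgeR adjusted p = 0.0413), and the pseudogenes Gm336 and Gm5511, which lie among the Ms4a genes, were not called (edgeR adjusted p = 0.306 and 0.603). Gm6501, a processed pseudogene, was lower by a small amount (-0.16 ± 0.05 SE, edgeR adjusted p = 0.0456), and Tmem109, the furthest gene looked at on that side, was not called (edgeR adjusted p = 0.283).

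Per length, the order of the members was led by Ms4a3 and Ms4a6c in both genotypes. In the authors' FPKM values Ms4a3 had 95.7 ± 1.52 in Mc5r-null and 176 ± 10.03 in wild-type libraries, Ms4a6c 19.4 ± 0.82 in Mc5r-null and 42.4 ± 0.718 in wild-type libraries, and Ms4a6b 1.40 ± 0.019 in Mc5r-null and 2.98 ± 0.138 in wild-type libraries (SD, n = 3 each). Then came Ms4a4c with 0.73 ± 0.072 FPKM in Mc5r-null and 2.515 ± 0.346 FPKM in wild-type libraries. Ms4a2 had 0.587 ± 0.213 FPKM in Mc5r-null and 2.445 ± 0.209 FPKM in wild-type libraries, and Ms4a6d 0.593 ± 0.114 FPKM in Mc5r-null and 1.365 ± 0.128 FPKM in wild-type libraries. Ms4a4b had 0.258 ± 0.0433 FPKM in Mc5r-null and 0.351 ± 0.0298 FPKM in wild-type libraries, and Ms4a7 0.0257 ± 0.0222 FPKM in Mc5r-null and 0.00402 ± 0.00696 FPKM in wild-type libraries.

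Ms4a1 changed place in the order, with 0.58 ± 0.0257 FPKM in Mc5r-null and 0.173 ± 0.0199 FPKM in wild-type libraries. In Mc5r-null libraries it overlapped with Ms4a2, Ms4a2 with Ms4a6d and Ms4a6d with Ms4a4c, so these neighbours are not ordered beyond their spread, while the lowest Ms4a4c library (0.647 FPKM) lay above the highest Ms4a1 library (0.61 FPKM). In wild-type libraries Ms4a4c and Ms4a2 overlapped and the other neighbours in the order did not. The length behind these FPKM values was recovered from the counts. In all 13 Ms4a and Tmem176 genes with counts it equalled, within 1 base, the summed length of all distinct annotated exons, so that bases in overlapping exon variants were counted more than once. For Ms4a6b this gave 8215 bases where the exons cover 4485, and for Ms4a6c 2317 where they cover 2050. The deposited FPKM therefore understate Ms4a6b 1.83-fold and Ms4a6c 1.13-fold against a level per covered base.

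**Figure D3:**
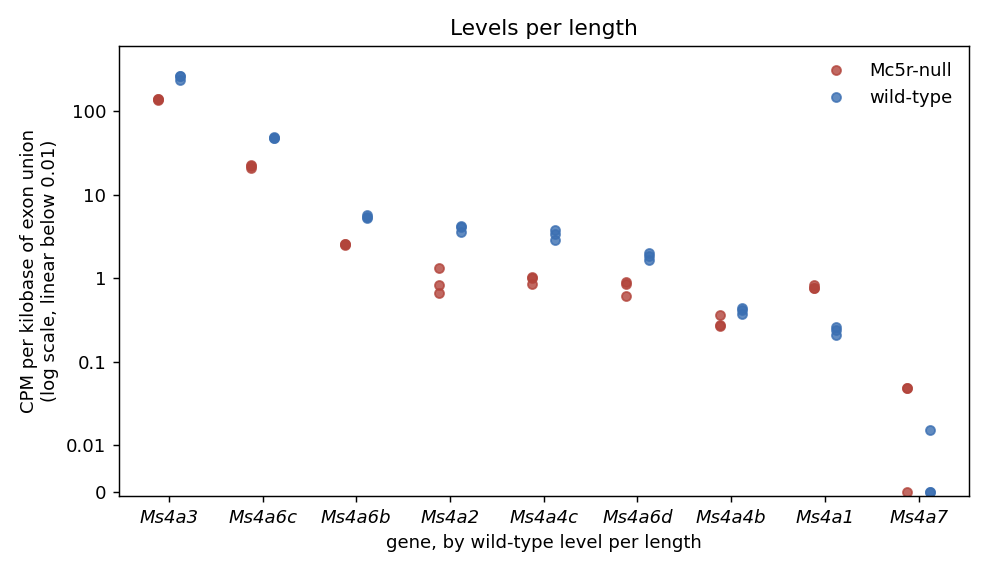
Levels per length of the 9 Ms4a genes, as CPM per kilobase covered by annotated exons, in each of the 3 Mc5r-null and 3 wild-type libraries (points), on a log axis that is linear below 0.01. Ms4a3 lies highest in both genotypes, at 138 in Mc5r-null and 254 in wild-type libraries on average, and Ms4a1 is the gene whose Mc5r-null points lie above the wild-type points without overlap.

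The other subunits of the IgE receptor were lower as well, by unequal factors. Fcer1a, the chain that binds IgE, had 52, 58 and 41 counts in Mc5r-null libraries, against 197, 207 and 197 in wild-type libraries, a log2 fold change of -1.87 ± 0.13 (SE, edgeR adjusted p = 1.49e-05). Fcer1g, the gamma chain that other Fc receptors also use, had 401, 451 and 444 counts in Mc5r-null libraries, against 778, 676 and 760 in wild-type libraries, a log2 fold change of -0.65 ± 0.07 (SE, edgeR adjusted p = 0.000266). The signalling genes next to the receptor went in both directions. Of 16 genes of the receptor and its proximal signalling, beside Ms4a2, 6 were higher and 4 lower, and the median was 0.00 on the log2 scale. The 4 lower genes were the chains Fcer1a and Fcer1g, the kinase gene Lyn (-0.17 ± 0.03 SE, edgeR adjusted p = 0.00387) and the exchange factor gene Vav1 (-0.16 ± 0.03 SE, edgeR adjusted p = 0.00168). The adaptor gene Lat was higher (0.70 ± 0.08 SE, edgeR adjusted p = 0.000321), as was the phospholipase gene Plcg2 (0.15 ± 0.02 SE, edgeR adjusted p = 0.00059). Without Mc5r-null replicate 1, 2 or 3 the number of higher genes was 2, 4 or 3, and without wild-type replicate 1, 2 or 3 it was 2, 3 or 3. With DESeq2 it was 3. The number of lower genes was 4 in each of these.

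Basophil and mast cell genes were lower alongside Ms4a2. Of 15 listed, 11 were in the fit, 9 of them were lower and 0 higher, and their median was -0.84 on the log2 scale. The basophil protease genes Mcpt8 (-1.66 ± 0.05 SE, edgeR adjusted p = 3.89e-08) and Prss34 (-1.59 ± 0.04 SE, edgeR adjusted p = 3.42e-08) and the mast cell carboxypeptidase gene Cpa3 (-1.41 ± 0.07 SE, edgeR adjusted p = 1.83e-06) were among them. The summed level of the list was 331.5 to 391 CPM in Mc5r-null and 593 to 630.5 CPM in wild-type libraries. Gata2, the largest gene of that sum in Mc5r-null libraries, went the other way and was not called (0.41 ± 0.30 SE, edgeR adjusted p = 0.374). It had 1945, 1279 and 1176 counts in Mc5r-null and 964, 1088 and 1551 in wild-type libraries. The mast cell protease genes Tpsb2 and Cma1 had no count in any library. How far such cells account for the Ms4a2 values was not tested.

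Progenitor and monocyte genes were lower alongside Ms4a3 and the Ms4a6 genes. Of 12 granulocyte-macrophage progenitor genes 10 were lower and 0 higher, and the median was -0.65 on the log2 scale, beside -0.84 for Ms4a3. Fcnb, the ficolin gene, was at -1.22 ± 0.04 (SE, edgeR adjusted p = 7.03e-08) and the granule protease gene Prtn3 at -0.66 ± 0.02 (SE, edgeR adjusted p = 2.47e-08). Summed, the list held 9662 to 9901 CPM in Mc5r-null and 14840 to 16000 CPM in wild-type libraries. Most of that sum was Mpo, with 5090 CPM in Mc5r-null and 8149 CPM in wild-type libraries. Of 16 monocyte and macrophage genes 15 were in the fit, 11 lower and 2 higher, with a median of -0.73. For this list 9 were lower with DESeq2, 7 at an adjusted p under 0.01, and 9 to 11 without 1 library at a time. Without 1 library at a time the median ran from -0.78 to -0.57. The pore-forming protein gene Mpeg1 was at -1.09 ± 0.03 (SE, edgeR adjusted p = 3.33e-08) and the cytokine receptor gene Csf1r at -0.81 ± 0.04 (SE, edgeR adjusted p = 3.65e-06). Among those that were higher was C1qa, a complement gene of macrophages (2.22 ± 0.37 SE, edgeR adjusted p = 0.00228). Summed, this list held 632 to 679 CPM in Mc5r-null and 1222 to 1242 CPM in wild-type libraries. The largest part was Klf4, with 322 CPM in Mc5r-null and 501 CPM in wild-type libraries.

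**Figure D4:**
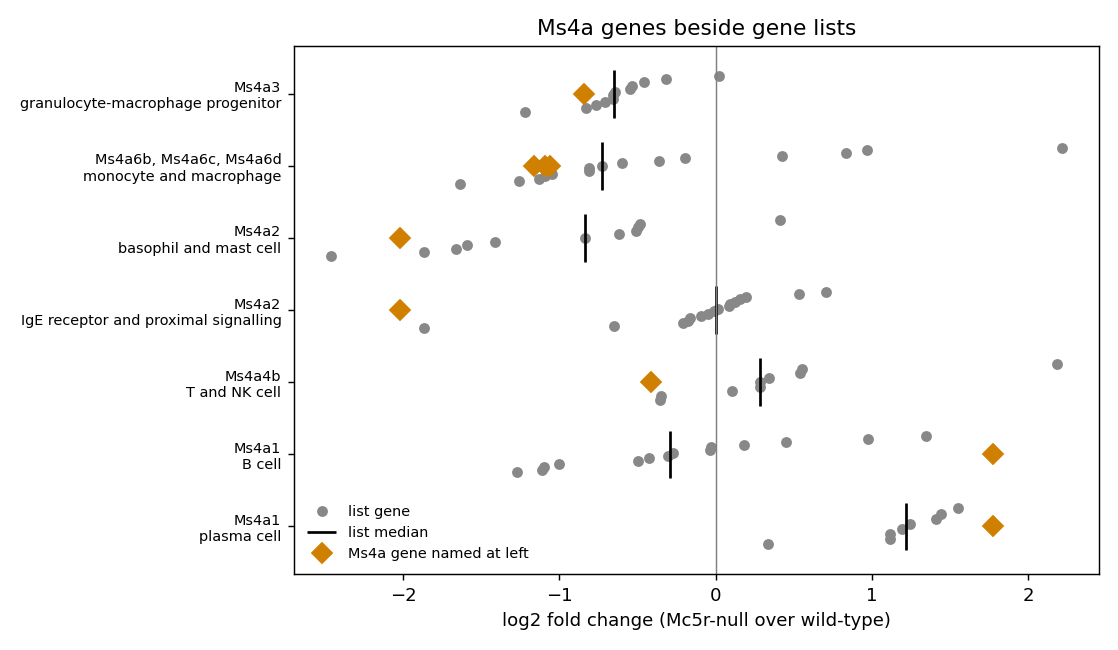
Log2 fold changes (Mc5r-null over wild-type) of the genes of 7 lists (grey points) with the list median (black line), and of the Ms4a gene or genes set beside each list (diamonds). Ms4a3 and the Ms4a6 genes lie among the genes of their lists, as does Ms4a2 among the basophil and mast cell genes. Ms4a1 lies above every B cell gene and every plasma cell gene in the fit. Ms4a2 lies below every gene of the IgE receptor list, and Ms4a4b below every T and NK cell gene in the fit.

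B cell genes went in both directions beside Ms4a1. Of 16 B cell genes 14 were in the fit, 3 higher and 5 lower, with a median log2 fold change of -0.29, and their summed level was 688 to 697 CPM in Mc5r-null and 704.5 to 709 CPM in wild-type libraries. Without Mc5r-null replicate 3 that median was -0.19, without wild-type replicate 2 it was -0.42, and with no filter on low counts it was -0.16. Most of the sum was Cd24a, a gene that many other cells also express, with 493 CPM in Mc5r-null and 518 CPM in wild-type libraries, so the sum says little about the other genes. Cd79a, a chain of the B cell receptor complex, was higher (0.98 ± 0.04 SE, edgeR adjusted p = 1.07e-06), and so was the Fc receptor-like gene Fcrla (1.35 ± 0.14 SE, edgeR adjusted p = 0.000174). The genes of the surrogate light chain of B cell precursors were lower, Igll1 (-1.27 ± 0.10 SE, edgeR adjusted p = 2.92e-05) and Vpreb1 (-1.11 ± 0.09 SE, edgeR adjusted p = 4.22e-05). The 8 plasma cell genes were higher, with a median of 1.22, among them Mzb1 (1.19 ± 0.04 SE, edgeR adjusted p = 2.83e-07). The number called was 7 without Mc5r-null replicate 1 or 2, without any 1 wild-type library, with no filter on low counts and at an adjusted p under 0.01. Their summed level was 5973, 5873 and 2993 CPM in Mc5r-null and 1959 to 2006 CPM in wild-type libraries, the low Mc5r-null library being replicate 3, where Jchain had 36618 counts. Most of the sum was Jchain, with 4572 CPM in Mc5r-null and 1760 CPM in wild-type libraries, so it says little about the other genes. Among Mc5r-null libraries, Sdc1, Irf4, Mzb1 and Derl3 had their highest counts in replicate 3. Xbp1, Prdm1 and Tnfrsf17 had their lowest there, by smaller factors than Jchain. Plasma cells are known to have lost CD20, and the part of plasma cells or B cells in the Ms4a1 values was not tested.

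Of 12 T and NK cell genes 9 were in the fit, 2 higher and 1 lower, with a median of 0.28, while Ms4a4b was at -0.41. The T cell receptor complex gene Cd3e had 13, 13 and 17 counts in Mc5r-null libraries and 0, 5 and 5 in wild-type libraries (edgeR adjusted p = 0.0201), and the granule gene Nkg7 was lower (-0.35 ± 0.02 SE, edgeR adjusted p = 9.96e-06). The summed level of the list was 272 to 276 CPM in Mc5r-null and 319.5 to 322.5 CPM in wild-type libraries. Most of that sum was Nkg7, with 204.6 CPM in Mc5r-null and 267 CPM in wild-type libraries. Without wild-type replicate 2 the median of the list was 0.43. Without Mc5r-null replicate 3 the number of higher genes was 1, and without Mc5r-null replicate 1 or wild-type replicate 2 it was 3.

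Likeness to each gene was measured as the root mean square difference of centred log2 CPM over the 6 libraries, among the 13200 genes whose average log2 CPM was 1 or more. With 6 libraries of 2 genotypes it reflects mostly the size of the genotype difference. Nearest to Ms4a2 were Lrmda (0.249), Fcer1a (0.26) and F13a1 (0.269). Prg2 (0.0456), Clec12a (0.0463) and Fcgr3 (0.047) were nearest to Ms4a3. For Ms4a4c they were the basophil protease gene Mcpt8 (0.108), Dmkn (0.144) and Prss34 (0.163). Ms4a6b and Ms4a6c shared Mpeg1 (0.0467 and 0.0505) and Vpreb1 (0.0529 and 0.0633) as their nearest genes, followed by Gapt for Ms4a6b (0.0588) and Atf3 for Ms4a6c (0.067). Gdf3 (0.113), Ptafr (0.123) and Gpr160 (0.126) were nearest to Ms4a6d, and Sec31b (0.0509), Kdm8 (0.0578) and Gm9231 (0.0654) to Ms4a4b. For Ms4a1 the nearest were 3 immunoglobulin V segments, Ighv14-1 (0.0522), Igkv13-84 (0.0659) and Igkv5-43 (0.0728).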

How the data were processed

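Poly-A RNA of 6 LSK libraries was sequenced as paired-end stranded libraries, per the labels' protocols. The authors deposited whole-number counts per gene, not normalized, per the file headers, and FPKM values beside them. The submitters' processing notes name CASAVA 1.8, HISAT2, StringTie, edgeR and GRCm38 without roles, so how each was used, the annotation release and the use of strand are unknown here.

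The deposited counts went into edgeR 4.0.16 (R 4.3.3). After filterByExpr (minimum count 10, minimum total 15) and TMM scaling, the robust quasi-likelihood F-test for genotype ran on the whole table. CPM divide by a library's total of gene counts. Log2 CPM for likeness used a prior count of 2. SEs are the fold change over the root of F. Alternatives were RLE and upper-quartile scaling, DESeq2 1.42.0, limma-voom (limma 3.58.1), other filters and thresholds, leaving out immunoglobulin genes, each library in turn, and the replicate number as a block. Scripts were tested on simulated data. Coding alignments used Biopython 1.88.

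The genes and lists were chosen with earlier results of these data known. Named genes were the 9 Ms4a genes, Mc5r, other detected Ms4a and Tmem176 genes, chromosome neighbours in the fit, of each list up to 4 with the smallest p, and the 3 nearest by likeness. Chosen after their values were seen were Ly6a, Cd48, Xist, Kdm5d, Ddx3y, Eif2s3y, Uty, C1qa, Lyn, Vav1, Cd24a, Jchain, Xbp1, Prdm1, Tnfrsf17, Tpsb2, Cma1, Gata2, Mpo and BE692007. Some genes of the lists are not reported here by name. Intervals and floors cover counting error only. Within a genotype, library pairs differed by 6.12 to 8.37 times counting noise (mean chi-square per gene), and none was treated as a duplicate. Such a mean can come from few genes, so it cannot show whether the libraries came from separate mice. For the Ms4a genes in the fit the spread over the 3 libraries of a genotype was mostly near counting noise or below it. It ran from 0.0299 times (Ms4a6b, Mc5r-null) to 23.2 times (Ms4a3, wild-type).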

Additional observations from a re-analysis of the deposited data

How the results depend on the processing

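The log2 fold changes of the 8 Ms4a genes in the fit were recomputed under 14 alternatives, 112 values in all, and 111 kept their direction and their side of the threshold. The exception was Ms4a4b, which ranged from -0.56 to -0.34 and was called only without Mc5r-null replicate 3. Ms4a1 ranged from 1.69 to 1.85, Ms4a2 from -2.35 to -1.82 and Ms4a3 from -0.89 to -0.82. Without 1 library at a time the counts of called Ms4a genes were 1 higher and 6 to 7 lower. Over all genes, 1656 were higher and 1446 lower with DESeq2, 1552 and 1444 at an adjusted p under 0.01, 2567 and 2456 as reported, and 2080 to 2124 and 1986 to 2094 without 1 library at a time. The cause of the lower DESeq2 counts was not tested. With the replicate number as a block, 2254 were higher and 2148 lower, the Ms4a calls were 1 higher and 6 lower, 7 plasma cell genes were higher, and of the IgE receptor list 3 were higher. Deviations of libraries of equal number had correlations of 0.00255, -0.0408 and -0.024 across genes, and those of unequal number -0.0237 to 0.0482. These values show no pairing by number. Genes of few counts enter them, so they cannot settle whether the numbers pair libraries. Per kilobase of covered exon, a measure chosen after the data were seen, Ms4a2 had rank 4 and Ms4a4c rank 5 in wild-type libraries, the reverse of the FPKM order, and in Mc5r-null libraries Ms4a2 had rank 5 and Ms4a6d rank 6, also reversed. Few counts limit Ms4a7, Ms4a4a and Ms4a8a.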
